A study of Mus musculus with 13 samples.

Results

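The 7 minor internal regions of the intracisternal A particle (IAP) family were examined in small RNA libraries of male mouse germ cells. The deposited tables listed 262 retrotransposon consensus sequences, of which 25 were IAP sequences, and the 7 were those IAP rows named as internal regions (containing -int or ending in _I) other than IAPEz-int and IAPA_MM. They were IAPEy-int, IAPEY3-int, IAPEY4_I, IAPEY5_I, IAP1-MM_I, IAPLTR4_I and IAPLTR3-int, and all were listed in each of the 9 biological samples. All cells came from C57BL6/J mice aged 3 to 4 weeks and were sorted after Hoechst staining. One set had single libraries of spermatogonia (SG, 1 library), leptotene/zygotene (L/Z) spermatocytes (LZ, 2 biological replicates), pachytene/diplotene spermatocytes (PD, 1 library) and round spermatids (RS, 1 library). The other set had 2 biological replicates each of spermatogonia (SG_T) and L/Z spermatocytes (LZ_T), each run as 2 technical replicates whose values were averaged. Technical replicate 1 was a 50 bp run, like all libraries of the first set, and technical replicate 2 a 100 bp run. The technical replicates held 852565 to 7725276 reads and were given equal weight. No label gave a genotype, but the table headers of this second set carry a Pld6 knockout tag. A knockout, the sequencing depth and the run, other than its length, therefore cannot be told apart between the sets. The 50 bp length was shared by technical replicate 1 and the first set. No mRNA was measured in these libraries by which Pld6 or the stage of the cells could be checked.

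IAPs are endogenous retroviruses of rodents. An internal region holds the coding part of such an element and lies between 2 long terminal repeats (LTRs), which carry the promoter. PIWI-interacting RNAs (piRNAs) guide PIWI proteins to complementary transcripts in germ cells. Antisense piRNAs can pair with a retrotransposon transcript, sense piRNAs are made from the transcript itself, and in the ping-pong cycle cleavage guided by one strand makes piRNAs of the other. PLD6 is a mitochondrial nuclease needed to cut piRNA precursors. PIWIL2 (MILI), the PIWI protein of spermatogonia and early spermatocytes, binds shorter piRNAs than PIWIL1 (MIWI), which appears at the pachytene stage.

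The single-library set held 12541019 to 29956080 reads per sample and the second set 1810805 to 10764026, with technical replicates added. Reads of 24-33 nt, the length range of piRNAs, made up 29.8% of SG, 45.2% and 39.3% of the LZ libraries, 84.5% of PD and 83.1% of RS, against 14.8% to 23.5% in the second set. Values were in RPM, that is, reads per 1000000 reads of the library, so a level also moves with the rest of the library, and in bulk samples fewer cells of a type cannot be told apart from less RNA per cell. The members' RPM were not corrected for consensus length, and reads matching several related IAP sequences equally well had been divided among them. Levels are therefore compared between samples. Where members are set side by side, the values are shares of the reads counted, to which a longer consensus can give more, and not levels per length.

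IAPEy-int and IAPEY3-int gave much of the members' reads in the early stages, and IAPLTR3-int gave most of them in the late ones. For IAPEy-int, 24-33 nt reads were at 401 RPM in SG, 317 and 598 in the LZ pair, 66.8 in PD and 53.5 in RS. IAPEY3-int was at 324 RPM in SG, 233 and 503 in the LZ pair, 149 in PD and 132 in RS. IAPLTR3-int ran the other way, with 118 RPM in SG, 304 and 361 in the LZ pair, 567 in PD and 382 in RS. For both IAPEy-int and IAPEY3-int the SG value lay between the LZ libraries and the PD and RS values lay below them, while for IAPLTR3-int the SG value was the lowest and the PD value the highest.

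The other 4 members had fewer reads. IAP1-MM_I was at 34.2 RPM in SG, 24.4 and 57.3 in the LZ pair, 3.04 in PD and 3.52 in RS. IAPEY4_I was at 38.8, 24.5 and 52.1, 10.2 and 10.4 RPM in the same order, and IAPEY5_I at 39.9, 39.0 and 78.6, 24.9 and 14 RPM. IAPLTR4_I had 29.7 RPM in SG, 16.8 and 36.1 in the LZ pair, 15.7 in PD and 9.64 in RS. In each of the 4, the SG value lay between the LZ libraries and the RS value was below both of them. LZ replicate 2 exceeded replicate 1 for 7 of 7 members, by 1.19 to 2.35 times, and for 125 of 156 retrotransposons that averaged 1 RPM or more in LZ (median 1.51 times), so the spread between the LZ libraries was largely shared.

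**Figure D1:**
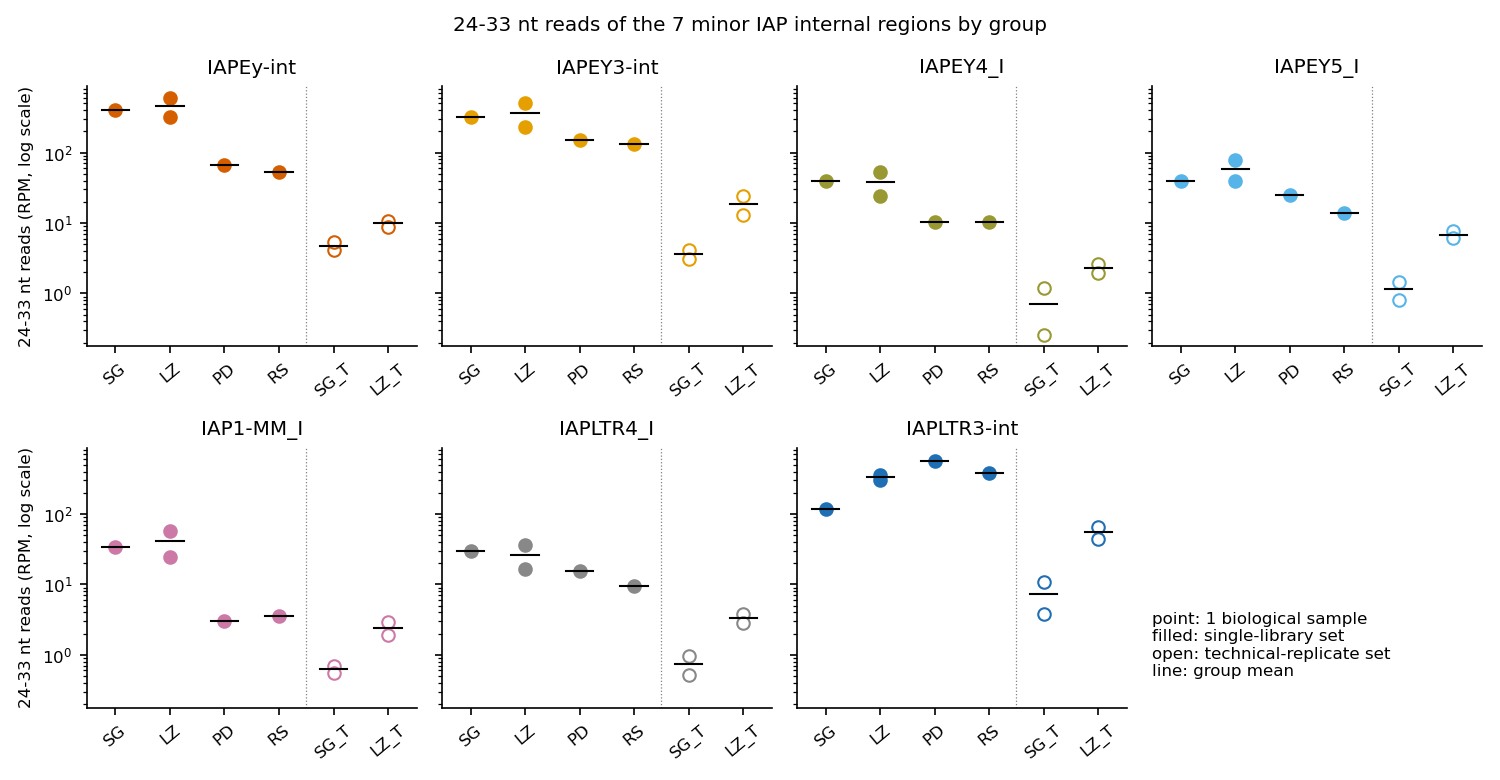
RPM of 24-33 nt reads (log scale) for each member in the 6 groups, with 1 point per biological sample, filled for the single-library set and open for the set whose table headers carry a Pld6 knockout tag, and a line at the group mean. IAPLTR3-int has its highest value in PD (567 RPM), the other 6 have theirs in an LZ library, and every open point lies below every filled point of the same member.

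The first question was how the members' piRNAs change from stage to stage. A difference was counted where at least 10 RPM was present in either stage, the difference in log2(RPM + 1) exceeded 1 in size (2-fold) and the other stage lay outside the range of the LZ pair; SG, PD and RS are single libraries, so these counts come from no test. From SG to LZ, 1 of 7 members was higher by this rule, against 24 of 87 retrotransposons (27.6%), and 0 were lower against 1 of 87 (1.15%). The higher one was IAPLTR3-int, which was 2.80-fold higher in LZ, whereas the other 6 differed by −0.16 to 0.55 on the log2 scale. From LZ to PD, 5 of 7 members were lower, against 38 of 94 retrotransposons (40.4%), and 0 were higher against 22 of 94 (23.4%). The largest difference was that of IAP1-MM_I, 13.4-fold lower in PD, followed by IAPEy-int (6.84-fold), IAPEY4_I (3.77-fold), IAPEY3-int (2.47-fold) and IAPEY5_I (2.36-fold). IAP1-MM_I, at 3.04 RPM in PD, met the limit of 10 RPM only through LZ. IAPLTR4_I was 1.68-fold lower and IAPLTR3-int 1.71-fold higher, both short of the limit. The members' median difference was −1.30, against −0.67 over all 94. Without LZ replicate 2, 3 members were lower in PD, and scaled to 24-33 nt reads no member was over 2-fold higher in LZ than in SG.

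From PD to RS, 0 of 6 members with enough reads were lower by the same rule, against 38 of 85 retrotransposons (44.7%). Their differences ran from −0.79 for IAPEY5_I to 0.03 for IAPEY4_I, with a median of −0.44 against −0.85 over all 85. The members shared this with the internal regions of LTR elements outside the IAP family, of which 0 of 13 were lower. Other IAP sequences had lower RPM in RS: 7 of 8 IAP LTRs were over 2-fold lower, IAPEz-int was 2.67-fold lower and IAPA_MM 2.00-fold lower. The members made up 10.8% of IAP-matching 24-33 nt reads in SG, 11.6% and 12.1% in the LZ pair, 11% in PD and 22.4% in RS.

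Summed over the members, 24-33 nt reads were at 986 RPM in SG, 958 and 1685 in the LZ pair, 836 in PD and 604 in RS. This sum joins opposite courses. IAPLTR3-int supplied 12.0% of it in SG, 31.7% and 21.4% in the LZ pair, 67.7% in PD and 63.2% in RS, while the share of IAPEy-int was 40.7%, 33.1% and 35.5%, 7.99% and 8.85%. The log2 ratio of PD to LZ was −0.66 for the sum, −1.87 without IAPLTR3-int, and 0.32 when RPM were rescaled to the total over the listed retrotransposons, a total that itself was 1.96-fold lower in PD. On that rescaled basis 2 members instead of 5 were lower in PD and 1 was higher, and 3 were higher in RS than in PD.

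The strand of the reads changed between L/Z and PD. In SG and LZ, 6 of the 7 members had about as many or more sense than antisense reads, and in PD and RS all 7 were mostly antisense. The antisense share of IAP1-MM_I was 7.63% in SG (95% Wilson interval 5.58% to 10.5%), 9.23% and 8.99% in the LZ pair, 91.5% in PD (80.1% to 97.4%) and 97.2% in RS. That of IAPEy-int was 33.1%, 23.9% and 34.3%, 68.4% and 75.3% in the same order. IAPEY3-int went from 48.1% in SG and 46.6% and 50.5% in LZ to 91.8% in PD and 93.8% in RS.

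In IAPEY4_I the antisense share was 44.5% in SG, 35.9% and 40.6% in the LZ pair, 81.6% in PD and 82.2% in RS. IAPEY5_I had 49.1%, 38.0% and 32.5%, 88.6% and 86.1%, and IAPLTR4_I had 44.4%, 49.1% and 40.9%, 91.3% and 87.1%. IAPLTR3-int was the exception, being already antisense in SG (79.2%, interval 77.1% to 81.1%) and in LZ (88.3% and 82.4%), with 92.2% in PD and 92.4% in RS. Among retrotransposons with at least 10 RPM in both stages, the share in LZ lay above SG without overlap for 2 of 7 members (34 of 67 in all, 50.7%) and below it for 2 (19 of 67, 28.4%). The PD share lay above both LZ libraries for 6 of 6 members and for 57 of 74 in all (77.0%). The median share went from 41.6% to 90.0% over these 6 members and from 48.5% to 70.5% over the 74. From PD to RS the share was higher for 4 of 5 members and for 22 of 74 in all (29.7%), and lower for 1, against 52 of 74 (70.3%). Intervals cover counting error only, since reads without molecular identifiers are not independent molecules.

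**Figure D2:**
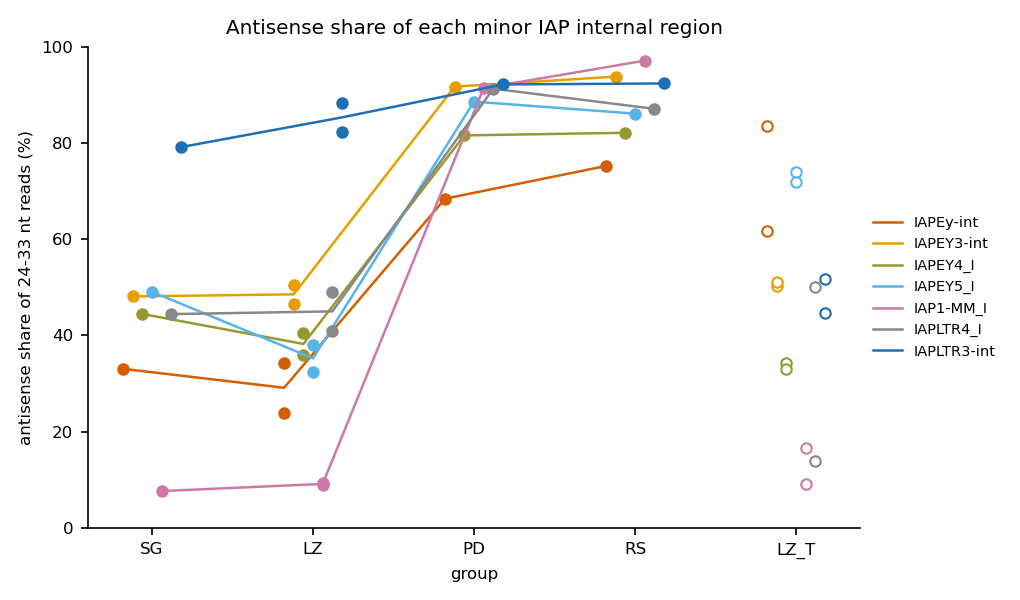
Antisense share of 24-33 nt reads (percent) of each member by group, with 1 point per biological sample, lines through the means of the single-library groups and open points for LZ_T. In PD and RS all members lie between 68.4% and 97.2%, whereas in SG and LZ the members other than IAPLTR3-int lie at or below 50.5%.

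The strands differed in how far they moved. Sense reads in PD lay below both LZ libraries for 6 of 7 members, and antisense reads lay below them for 2 (IAPEy-int and IAPEY4_I), between them for 4 and above them for 1 (IAPLTR3-int). Such counts were not made over all retrotransposons. Summed over all listed retrotransposons, sense reads were 3.90-fold lower in PD than in LZ without overlap. The summed antisense reads were 1.18-fold lower and overlapped, so a strand difference in this direction was not particular to the members. Sense reads of IAP1-MM_I were at 31.6 RPM in SG, 22.1 and 52.2 in the LZ pair, 0.26 in PD and 0.11 in RS, where they amounted to 3.46 and 1.38 reads, while its antisense reads were at 2.61, 2.25 and 5.15, 2.78 and 3.42 RPM. Sense reads of IAPEY3-int were at 168 RPM in SG, 124 and 249 in the LZ pair, 12.3 in PD and 8.12 in RS, whereas its antisense reads were at 156, 109 and 254, 137 and 123 RPM, with the PD and RS values between the LZ libraries. For IAPEy-int both strands were lower in the late stages: sense reads were at 269, 241 and 392, 21.1 and 13.2 RPM and antisense reads at 133, 75.8 and 205, 45.8 and 40.3 RPM. For IAPLTR3-int antisense reads were at 93.8 RPM in SG, 268 and 297 in the LZ pair, 522 in PD and 353 in RS, and sense reads at 24.7, 35.4 and 63.6, 44.1 and 29.0 RPM, the PD value lying between the LZ libraries.

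Read lengths shifted in the same interval. The share of 28-33 nt reads among 24-33 nt reads was 42.4% over the summed members in SG, 42.7% and 42.8% in the LZ pair, 72.0% in PD and 86.8% in RS. Between SG and LZ it was higher without overlap in LZ for 2 of 7 members (14 of 67 retrotransposons, 20.9%) and lower for 3 (34 of 67, 50.7%). It was higher in PD than in both LZ libraries for 6 of 6 members with at least 10 RPM, and likewise for 74 of 74 retrotransposons (100%). From PD to RS it was higher for 5 of 5 members against 45 of 74 in all (60.8%), the other 29 (39.2%) being lower. IAP1-MM_I had the lowest 28-33 nt share of the members in the early stages, with 20.0% in SG and 17.9% and 22.7% in LZ. The shift was present on each strand. Among antisense reads the 28-33 nt share was 45.0% in SG, 47.2% and 46.1% in the LZ pair, 71.9% in PD and 87.5% in RS, and among sense reads 40.3%, 38.0% and 39.6%, 73.6% and 79.8% in the same order.

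**Figure D3:**
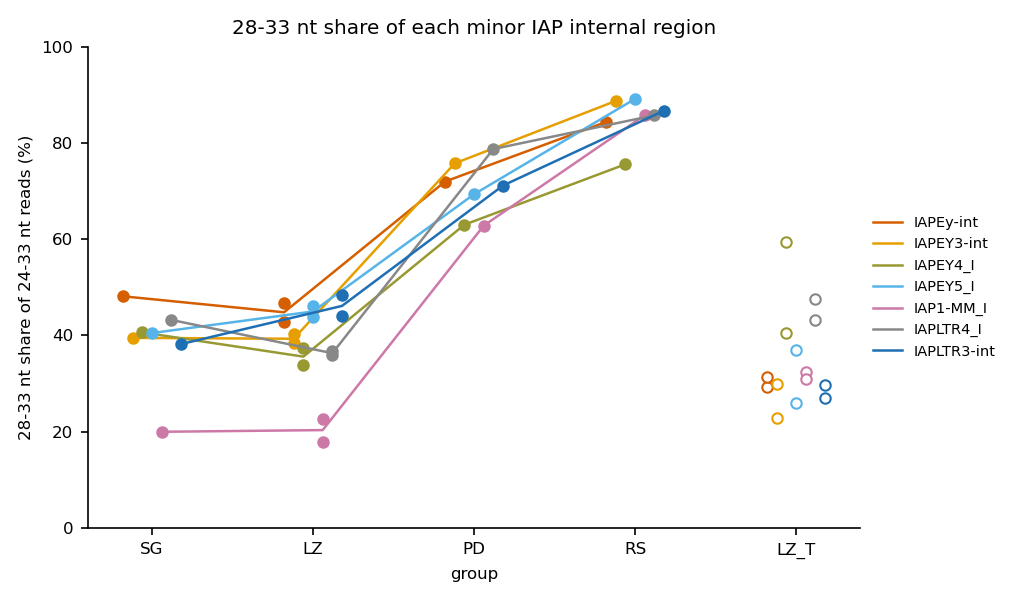
Share of 28-33 nt reads among the 24-33 nt reads of each member (percent) by group, drawn as in the plot of antisense shares. All members lie at or below 48.3% in SG and LZ and at or above 62.8% in PD, and in LZ_T IAPEy-int, IAPEY3-int, IAPEY5_I and IAPLTR3-int lie below their LZ values and the other 3 members above theirs.

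The next question was how the members differed between the 2 sets at the same stage. In LZ_T, IAPEy-int was at 10.8 and 8.86 RPM, against 317 and 598 in LZ. IAPEY3-int was at 23.7 and 13 RPM against 233 and 503, and IAPLTR3-int at 65.2 and 44.6 RPM against 304 and 361. No LZ_T value of any member overlapped with LZ. The other 4 were at 1.91 to 7.64 RPM in LZ_T: 2.88 and 1.91 RPM for IAP1-MM_I, 2.58 and 1.92 for IAPEY4_I, 7.64 and 6.06 for IAPEY5_I, and 3.76 and 2.83 for IAPLTR4_I. These rested on 18.8 to 66.6 reads per sample after division among sequences. Technical replicates of LZ_T differed as well: IAPLTR3-int was at 48.2 and 82.1 RPM in those of replicate 1, in which 24-33 nt reads made up 15.9% and 24.8% of the library, and at 41.2 and 48 RPM in those of replicate 2.

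In the limma fit of log2(RPM + 1), 7 of 7 members were lower in LZ_T than in LZ, against 125 of 136 retrotransposons tested (91.9%), and 0 were higher against 3 (2.21%), so a call as such did not set the members apart. The change was −5.34 ± 0.44 (SE) for IAPEy-int, −4.21 for IAPEY3-int, −3.52 for IAP1-MM_I, −3.51 for IAPEY4_I, −2.85 for IAPEY5_I, −2.60 for IAPLTR3-int and −2.59 for IAPLTR4_I, with n = 2 samples per group. The median was −3.51 over the members and −2.87 over all 136. Among the related lists, 10 of 11 IAP LTRs (median −2.55) and 20 of 21 internal regions of LTR elements outside the IAP family (median −3.61) were lower. Ranked from the largest fall, IAPEy-int was at place 13 of 136 and IAPLTR4_I at place 82. The excluded internal regions fell less, by 1.33 for IAPEz-int (place 122) and by 1.58 for IAPA_MM (place 115). In this fit limma gave the shared spread infinite weight, so all sequences have the same SE. This makes the adjusted p-values (6.9e-26 for IAPEy-int, 2.8e-08 for IAPLTR4_I) very small for 2 against 2 samples. The sequences are also not independent, since the spread between the LZ libraries was largely shared among them. With the spread of each sequence taken alone, 6 of 7 members and 110 of 136 retrotransposons passed the threshold, and IAPLTR4_I had an adjusted p of 0.051. Scaled to 24-33 nt reads, of which the second set had a smaller share, 7 of 7 members were lower, with a median of −2.61 against −2.34 over the 134 tested.

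A ratio within each library does not depend on the scaling. Per 100 RPM of IAPEz-int, IAPEy-int had 6.35 and 6.16 RPM in LZ and 0.33 and 0.37 in LZ_T. IAPEY3-int had 4.66 and 5.18 against 0.73 and 0.55, and IAPLTR3-int had 6.08 and 3.72 against 2.01 and 1.88. The members together made up 11.6% and 12.1% of IAP-matching reads in LZ and 2.86% and 2.66% in LZ_T, and 4.34% and 4.47% against 0.52% and 0.34% of reads on all listed retrotransposons. In each of these ratios LZ_T lay below LZ without overlap. The direction depends on the reference, however. From LZ to LZ_T the members' summed mean RPM fell 13.5-fold, against 2.61-fold for IAPEz-int and 1.30-fold for all listed retrotransposons. That listed total includes B1_Mm, B1_Mus1 and B1_Mus2, which were higher in LZ_T, with log2 changes of 2.49, 2.40 and 2.39. The median change over the 136 retrotransposons tested was −2.87, so the summed total does not stand for a typical retrotransposon. The summed internal regions of LTR elements outside the IAP family fell 97.1-fold, so relative to these the members were higher in LZ_T.

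The fall differed by strand among the members. Sense reads of IAPEy-int were at 1.76 and 3.40 RPM in LZ_T against 241 and 392 in LZ, a log2 change of −6.47 ± 0.47 (place 6 of 104 from the largest fall; limma adjusted p = 1.1e-07). Its antisense reads were at 9.01 and 5.46 RPM against 75.8 and 205, a change of −3.97 ± 0.50. IAPLTR3-int was the reverse. Its antisense reads were at 29.1 and 23.1 RPM in LZ_T against 268 and 297 in LZ, a change of −3.40 ± 0.36 (adjusted p = 1.5e-05), while its sense reads were at 36.0 and 21.5 RPM against 35.4 and 63.6, so that the groups overlapped (−0.75 ± 0.48, adjusted p = 0.156). The sense change of IAPLTR3-int was −1.28 to 0.31 over the fits tried, and 0.31 when values were scaled to 24-33 nt reads.

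On the sense strand 6 of 7 members were lower in LZ_T, against 86 of 104 retrotransposons (82.7%), and on the antisense strand 7 of 7, against 98 of 105 (93.3%). Antisense reads of IAP1-MM_I, IAPEY4_I and IAPLTR4_I averaged 0.33, 0.76 and 0.97 RPM in LZ_T. On that strand they met the filter of 1 RPM only through LZ, so their entry favoured a lower call. No member was higher on either strand, against 4 retrotransposons on the sense strand (3.85%) and 5 on the antisense strand (4.76%). With the spread of each sequence taken alone, 3 of 7 members passed on the antisense strand. Besides IAPEy-int, the sense changes were −4.19 for IAPEY3-int, −3.70 for IAPEY5_I, −3.52 for IAP1-MM_I, −3.22 for IAPEY4_I and −2.19 for IAPLTR4_I. Antisense changes were −4.07 for IAPEY3-int, −3.07 for IAPEY4_I, −2.65 for IAPLTR4_I, −1.78 for IAPEY5_I and −1.76 for IAP1-MM_I. The pseudocount shrank the last of these. Mean antisense RPM of IAP1-MM_I went from 3.70 in LZ to 0.33 in LZ_T, 11.3-fold lower, against 4.03-fold for IAPEY5_I. The sense change was the more negative one for 5 of 7 members and for 40 of 81 retrotransposons tested on both strands. For IAPEY3-int and IAPEY4_I the sense and antisense changes differed by less than their SE (0.45 to 0.49). In mean RPM without the pseudocount the order of IAPEY4_I was the opposite, 15.6-fold lower on the sense and 19.7-fold lower on the antisense strand. IAPEz-int and IAPA_MM were like IAPLTR3-int, with sense changes of −0.87 and 0.11 that did not pass the threshold (adjusted p = 0.119 and 0.820) and antisense changes of −2.23 and −2.83 that did. Of the IAP LTRs, 3 of 9 were lower on the sense strand (median −0.76) and 11 of 11 on the antisense strand (median −2.48). The internal regions outside the IAP family had 15 of 17 and 14 of 14 lower.

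**Figure D4:**
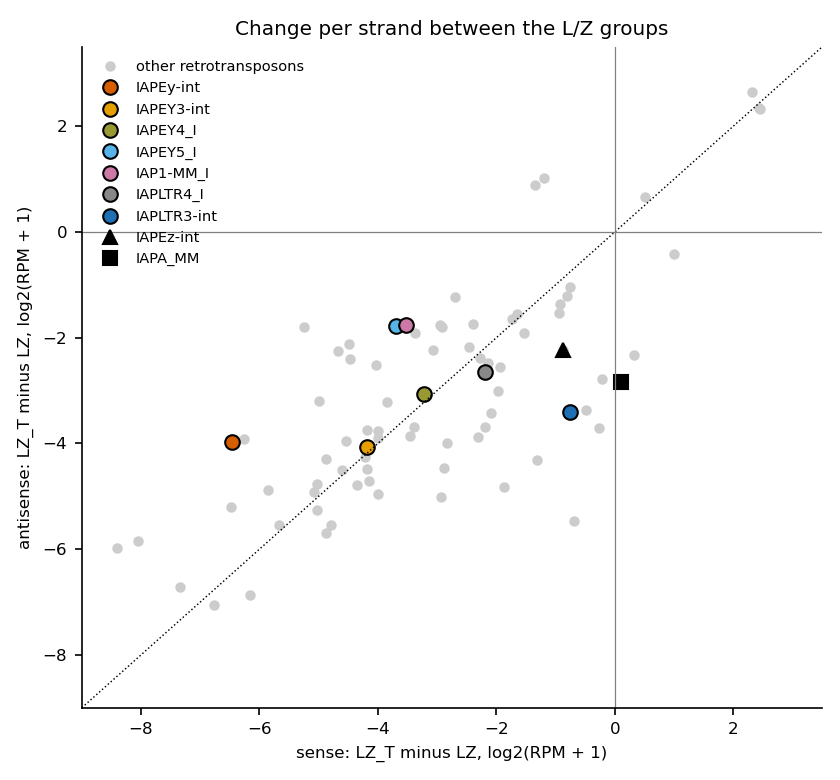
Change from LZ to LZ_T in log2(RPM + 1) on the sense strand (x axis) and the antisense strand (y axis) for the 81 retrotransposons tested on both, with the members in colour, IAPEz-int and IAPA_MM in black and a dotted line where the changes are equal. IAPEy-int lies far left of the line (−6.47 against −3.97), and IAPLTR3-int lies to its right (−0.75 against −3.40) near IAPEz-int and IAPA_MM.

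The antisense share moved accordingly. For IAPEy-int it was 83.6% and 61.7% in the LZ_T samples against 23.9% and 34.3% in LZ, and over the added reads of both technical replicates its Wilson intervals were 65.5% to 84.0% and 54.9% to 73.0%. For IAPEY5_I the share was 74.0% and 71.9% against 38.0% and 32.5%. For IAPLTR3-int it was 44.7% and 51.7% against 88.3% and 82.4%. IAPEY3-int differed little, with 50.2% and 51.1% in LZ_T and 46.6% and 50.5% in LZ. Of the 4 members with at least 5 RPM in both groups, 2 had a higher share in LZ_T without overlap and 1 a lower one, against 8 (25.8%) and 17 (54.8%) of 31 retrotransposons. The share of 28-33 nt reads was lower in LZ_T without overlap for 4 of these 4 members, against 11 of 31 (35.5%), and higher for 0, against 12 of 31 (38.7%). The other 3 members, each under 5 RPM in LZ_T and so on few reads, went the other way without overlap. IAP1-MM_I had 32.4% and 30.9% in LZ_T against 17.9% and 22.7% in LZ, IAPEY4_I had 40.4% and 59.5% against 33.8% and 37.4%, and IAPLTR4_I had 47.6% and 43.3% against 36.7% and 35.9%. The median over the first 4 was 44.9% in LZ and 29.3% in LZ_T, while over the 31 it was 45.1% and 46.1%.

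In spermatogonia of the second set the members had few reads. The summed 24-33 nt reads were at 23.4 and 14.4 RPM in SG_T, or 201 and 26.5 reads, against 986 RPM in SG. IAPEy-int was at 4.14 and 5.36 RPM against 401, IAPEY3-int at 4.14 and 3.08 against 324, and IAPLTR3-int at 10.9 and 3.86 against 118. The other 4 were at 0.26 to 1.46 RPM, which was 0.50 to 16.0 reads per sample, and in technical replicate 1 of SG_T replicate 2 IAPEY4_I and IAPLTR4_I were listed at 0, where 3 reads would be 3.52 RPM. All 7 members were over 2-fold lower in SG_T than in the single SG library, as were 70 of 70 retrotransposons with at least 10 RPM in either group (100%). The highest SG_T mean of a member was 7.37 RPM, for IAPLTR3-int. All 7 thus met the limit of 10 RPM only through SG, where they were high, and the count is no result about the members. The median difference was −4.44 over the members and −4.31 over the 70.

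Within the second set, 6 of 7 members were higher in LZ_T than in SG_T in the limma fit, against 25 of 58 retrotransposons tested (43.1%). IAP1-MM_I, IAPEY4_I and IAPLTR4_I averaged 0.62, 0.72 and 0.74 RPM in SG_T. They met the filter of 1 RPM only through LZ_T, where they were higher, so their entry favoured this direction. IAPLTR3-int, which was also the member that was higher in LZ than in SG, had a log2 change of 2.85 ± 0.44 (adjusted p = 0.00022). IAPEY3-int followed with 2.02 ± 0.37, IAPEY5_I with 1.89 ± 0.34, IAPLTR4_I with 1.31 ± 0.34, IAP1-MM_I with 1.05 ± 0.34 and IAPEy-int with 0.91 ± 0.34. For IAPEy-int only the antisense reads were higher, at a mean of 7.24 RPM in LZ_T against 0.78 in SG_T, the latter on 8.69 and 1.33 reads per sample. Its sense reads averaged 2.58 RPM in LZ_T and 3.97 in SG_T, and the groups overlapped. No fit by strand was run between these groups. IAPEY4_I missed the threshold (0.97 ± 0.37, adjusted p = 0.0501). Among the lists, 6 of 7 IAP LTRs and 1 of 5 other internal regions were higher. The direction rested on the scaling: rescaled to the total over the listed retrotransposons, which was 7.01-fold higher in LZ_T than in SG_T, limma called 0 of 7 members higher (0 at an unadjusted p under 0.05), 6 of the 7 changes were negative and 48 of 77 retrotransposons were lower. The median was 1.31 over the members and 0.80 over all 58 in RPM, and −0.48 and −1.57 over the 77 after rescaling. With the spread of each sequence taken alone 0 of 7 members passed (5 at an unadjusted p under 0.05), without LZ_T replicate 1 the count was 3, and without SG_T replicate 1 or SG_T replicate 2 it was 2.

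Reads of 11-18 nt did not follow the 24-33 nt reads between the sets, whereas those of 19-23 nt and 34-48 nt were lower in the second set as well. The 11-18 nt reads on the members, which are too short to be assigned with certainty when mismatches are allowed, summed to 4434 and 4634 RPM in LZ and to 4702 and 5197 RPM in LZ_T. In SG they were at 6008 RPM and in SG_T at 4458 and 6512 RPM. Reads of 19-23 nt were at 291 and 360 RPM in LZ and 92.1 and 70.4 RPM in LZ_T, and at 202 RPM in SG and 47.9 and 37.8 RPM in SG_T. Reads of 34-48 nt were at 19.9 and 42.6 RPM in LZ against 5.01 and 3.06 in LZ_T, and at 23.4 RPM in SG against 2.95 and 1.04 in SG_T. The 24-33 nt reads, by comparison, were at 958 and 1685 RPM in LZ and at 117 and 79.1 RPM in LZ_T.

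LTRs named for the same elements had few reads. IAPLTR3, the LTR of IAPLTR3-int, was at 9.91 RPM in SG, 18.7 and 28.6 in the LZ pair, 21.6 in PD and 7.97 in RS, and at 0.19 and 0.015 RPM in LZ_T. Its change between the L/Z groups was −4.46, against −2.60 for the internal region. IAPEY_LTR was at 21.0 RPM in SG, 12.0 and 27.8 in the LZ pair, 0.93 in PD and 0.44 in RS, lower in the late stages like IAPEy-int. IAPEY3_LTR had its highest value in PD, at 14.5 RPM against 3.04 and 4.54 in LZ, and differed in this from IAPEY3-int. IAPEY3C_LTR was lower in the late stages like IAPEY3-int, at 6.29 RPM in SG, 6.21 and 10.9 in the LZ pair, 3.98 in PD and 3.65 in RS, and was the third nearest to it in pattern (r = 0.964). The LTRs of IAP1-MM, IAPEY4, IAPEY5 and IAPLTR4 did not exceed 1.75 RPM in any sample.

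Patterns over the 9 samples were compared by Pearson's correlation of log2(RPM + 1) among 98 other retrotransposons with at least 10 RPM in any sample. The samples share their depth and set, so the values are a description. IAPLTR3-int was most like IAPA_MM (r = 0.988), ahead of IAPLTR2b (0.935) and RLTR45-int (0.927). IAPEy-int was most like L1_Mus3_orf2 (0.985), IAPEY3-int most like MMERVK10C (0.983), IAPEY4_I most like L1_Mus3_orf2 (0.979) and IAPEY5_I most like IAPLTR2a2_Mm (0.963). IAP1-MM_I was most like MURVY-int (0.982) and IAPLTR4_I most like MURVY-LTR (0.983). Between members, r was 0.88 to 0.99 among the 6 other than IAPLTR3-int, and 0.63 to 0.90 between these and IAPLTR3-int.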

How the data were processed

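For each of 13 libraries the authors deposited raw read counts per distinct sequence and a summary table of RPM per retrotransposon consensus. They trimmed adapters with cutadapt, took out miRNA reads and those of other abundant noncoding RNAs, and mapped what was left with SeqMap allowing 2 mismatches. A read that matched several sequences equally well was divided among them, and these RPM are per 1000000 library reads, by strand and length class. Groups came from the labels. The labels name biological replicates but not the animals behind them, so p-values measure only the spread between these samples.

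RPM of technical replicates were averaged. Rows of 8 satellites and other names that are no retrotransposons were left out. Each test used limma 3.58.1 (R 4.3.3) on log2(RPM + 1), over every retrotransposon that averaged 1 RPM or more in the samples compared. Its p-values were adjusted by Benjamini and Hochberg and called under 0.05. The direction of called changes was checked on simulated samples of equal depth with independent noise. That check cannot speak for the p-values here, since the real samples differ in depth and a library's deviation is shared across sequences. The pseudocount makes differences at low RPM smaller than their true ratio. The values are RPM of divided reads, so no count test was run. From the deposited counts came the library totals and the shares of 24-33 nt and miRNA reads (1 SG line had no count). Read numbers are RPM times library total. An exact permutation test of 2 against 2 samples cannot go below p = 0.333 and was not used. Named sequences are all members, the excluded IAPEz-int and IAPA_MM, LTRs of the same elements and the nearest patterns. The lists of IAP LTRs and other LTR-element internal regions were taken by name. The members and lists were chosen with earlier results of these data known, and the counts of strand and length shifts without overlap were added after seeing the data. Consensus sequences and their lengths were not used here, so no sequence or position is given.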

Additional observations from a re-analysis of the deposited data

How the results depend on the processing

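Values at a few RPM in SG_T and LZ_T rest on few reads, and SG, PD and RS have no replicate. The 7 members lower in LZ_T than in LZ kept their direction under every setting run, and 6 to 7 were called. For LZ_T against SG_T the count of members called higher, 6 as reported, was 1 without a filter, 2 of 2 tested at a mean of at least 10 RPM, 0 when rescaled to the listed retrotransposons, 3 when scaled to miRNA reads, 0 with the spread of each retrotransposon alone, and 2 to 4 when 1 replicate was left out (2 without either SG_T replicate, 3 without LZ_T replicate 1); the cause was not tested, except that fewer members were tested at 10 RPM. Rescaling to the listed retrotransposons turned the changes of IAP1-MM_I (−0.57), IAPEY3-int (−0.48), IAPEY4_I (−0.56), IAPEY5_I (−0.15), IAPEy-int (−1.61) and IAPLTR4_I (−0.43). Over all retrotransposons tested against SG_T the calls higher were 25 of 58 as reported, 12 of 211 without a filter, 21 of 58 with a trend in the prior spread, 4 of 58 with each spread alone and 0 of 77 rescaled. On the antisense strand the count of members lower in LZ_T than in LZ was 4 of 4 tested at 10 RPM, 3 of 7 with each spread alone and 6 to 7 with 1 replicate left out; on the sense strand it was 5 to 6 with 1 replicate left out, and IAPLTR3-int turned to 0.31 when scaled to 24-33 nt reads. Fits with a trend in the prior spread, with each spread alone, and the comparison of SG with SG_T were chosen after seeing the data.

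In the stage steps, scaling to 24-33 nt reads left 0 members higher in LZ than in SG. From LZ to PD, rescaling to the listed retrotransposons gave 1 member higher and 2 lower, and 3 to 6 were lower with 1 LZ replicate left out. From PD to RS, the same rescaling gave 3 higher. For the summed RPM, scaling to 24-33 nt reads took the log2 ratio of LZ to SG from 0.42 to −0.045. That of PD to LZ (−0.66) was 0.32 rescaled to the listed retrotransposons, −1.69 scaled to 24-33 nt reads and −1.87 without IAPLTR3-int. That of RS to PD (−0.47) was 0.75 rescaled and −0.28 without IAPLTR3-int. That of SG_T to SG (−5.70) was −2.39 rescaled, −5.05 scaled to 24-33 nt reads and −6.23 without IAPLTR3-int. That of LZ_T to LZ (−3.76) was −2.72 scaled to 24-33 nt reads and −4.52 without IAPLTR3-int, and that of LZ_T to SG_T (2.37) was −0.41 rescaled and 1.89 without IAPLTR3-int.

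For the antisense share of the summed members, the difference of LZ from SG (5.71 percentage points) was −2.19 as a mean of the members' shares, −2.78 without IAPLTR3-int and 4.73 to 6.69 with 1 LZ replicate left out. That of PD from LZ (40.2 points) was 45.0, 48.8 and 39.2 to 41.2 under the same settings. That of LZ_T from LZ (1.26 points) was 4.62 and 18.2, and −0.40 to 2.93 with 1 replicate left out.

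With the replicate number as a block, 7 of 7 members were higher in LZ_T than in SG_T, with 30 of 58 retrotransposons called higher and 4 lower, and 7, 6 and 7 members were lower in LZ_T than in LZ over all, sense and antisense reads. The numbers are shared names only: the deviations of same-numbered samples correlated at 0.109 for LZ_T with SG_T and at −0.194 for LZ_T with LZ (−0.357 on the sense and −0.155 on the antisense strand). With the LZ and LZ_T numbers crossed, a setting also chosen after seeing the data, 128 of 136 retrotransposons were lower, 90 of 104 on the sense strand and 98 of 105 on the antisense strand.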
